A study of Homo sapiens with 4 samples.

Results

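The genes described here encode the signalling chain that runs from SRC-family kinases through SYK and BTK to phospholipase C-gamma. They are BTK, SYK, LYN, FYN, PLCG1, PLCG2, LCP2, LAT, VAV1 and BLNK, 10 genes of the 30499 gene names on the array. Members were taken as every non-control probe that carried one of these gene names in the scanner files, which gave 12 probes among the 40974 tested. LAT had 3 probes and the other genes had 1 probe each, and each probe was kept apart.

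RNA was measured in Meg-01 cells, a human megakaryocytic leukemia line established from a patient in blast crisis of chronic myeloid leukemia. The 2 stable lines GATA1 5-13 and GATA1 4-14 carried a GATA1 shRNA delivered by lentivirus, and each was a single colony picked from soft agar after puromycin selection. The control, GATA1 Neg, was Meg-01 infected with a non-targeting shRNA virus and kept as a mixed population. Each clone was hybridized against GATA1 Neg on 2 dual-color arrays with the dyes exchanged, so 4 arrays compared 2 clones with 1 control RNA and the control has no spread of its own here. The comparison asked which transcripts differ when GATA1, a zinc finger transcription factor of the erythroid and megakaryocytic lineages, is reduced.

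In this pathway, LYN and FYN phosphorylate the tyrosine motifs of receptors such as the collagen receptor of platelets, the IgE receptor of mast cells and the antigen receptors of lymphocytes. SYK docks on those motifs and phosphorylates the scaffolds LAT, LCP2 (also called SLP-76) and BLNK, which bring VAV1, BTK and the gamma isoforms of phospholipase C to the membrane. Phospholipase C-gamma then makes inositol trisphosphate and diacylglycerol, which raise calcium and activate protein kinase C. In platelets the chain is known mainly for the response to collagen, and in B cells for the response to antigen.

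Because GATA1 binds sequences built around GATA, the start sites of the member genes were searched in RefSeq windows on GRCh38.p14 that reach from 250 bases before to 50 bases after a transcription start. The search covered AGATAA and AGATAG, together with TGATAA and TGATAG, on both strands. Of 35116 such windows, 8769 (25%) held at least 1 match. The search took in 9 of the genes, with LYN left out. They had 16 windows in all, and 5 of these held a match while 11 did not. BTK held 1 match, read as AGATAA on the opposite strand at bases 10 to 15 after its upstream start, and 3 copies of AGATAG before its downstream start, beginning at bases -185, -174 and -94. At least 3 matches occurred in 480 windows (1.37%). FYN held 1 match in each of 2 of its 4 windows, and the match of PLCG2 spanned the start itself, from base -4 to base 2. No match lay in the windows of SYK, PLCG1, LCP2, LAT, VAV1 or BLNK. A match is a run of letters and not a measured binding site. The windows with a match of BTK, of the first FYN start and of PLCG2 are printed 5′ to 3′ on the strand of the gene, with the matches in capitals, because BTK had the lowest log2 ratio of the members and FYN was lower in both clones.
BTK, upstream start, chrX:101390747-101391046, minus strand: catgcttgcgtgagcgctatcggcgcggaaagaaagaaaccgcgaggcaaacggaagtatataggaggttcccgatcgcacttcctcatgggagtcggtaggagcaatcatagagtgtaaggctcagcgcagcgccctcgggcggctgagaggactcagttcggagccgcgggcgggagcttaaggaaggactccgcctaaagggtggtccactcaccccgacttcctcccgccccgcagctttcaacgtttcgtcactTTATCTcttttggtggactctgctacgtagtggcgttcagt
BTK, downstream start, chrX:101386142-101386441, minus strand: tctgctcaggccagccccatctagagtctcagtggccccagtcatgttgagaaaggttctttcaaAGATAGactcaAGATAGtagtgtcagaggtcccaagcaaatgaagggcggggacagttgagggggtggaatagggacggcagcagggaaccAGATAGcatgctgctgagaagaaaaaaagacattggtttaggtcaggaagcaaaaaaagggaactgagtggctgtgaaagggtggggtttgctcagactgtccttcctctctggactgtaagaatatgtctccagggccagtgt
FYN, first start, chr6:111873403-111873702, minus strand: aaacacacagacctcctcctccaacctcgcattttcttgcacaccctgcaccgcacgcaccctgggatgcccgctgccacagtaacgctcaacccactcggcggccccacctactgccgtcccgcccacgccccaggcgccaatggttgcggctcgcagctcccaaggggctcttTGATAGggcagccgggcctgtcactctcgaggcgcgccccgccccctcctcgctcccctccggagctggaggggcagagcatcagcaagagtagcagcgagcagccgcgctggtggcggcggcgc
PLCG2, chr16:81738791-81739090, plus strand: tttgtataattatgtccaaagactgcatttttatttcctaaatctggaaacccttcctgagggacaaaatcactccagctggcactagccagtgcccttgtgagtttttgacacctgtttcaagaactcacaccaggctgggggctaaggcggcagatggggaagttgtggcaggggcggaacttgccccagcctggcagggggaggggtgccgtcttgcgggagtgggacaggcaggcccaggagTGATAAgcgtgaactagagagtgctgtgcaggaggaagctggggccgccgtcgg

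Values below are log2 ratios of a knockdown clone over GATA1 Neg after normalization, so a value below 0 is less RNA in the clone. The array with the knockdown RNA in the red dye is given first and the array with it in the green dye second. The GATA1 probe itself was at -0.21 and -0.34 in GATA1 5-13 and at -0.43 and -0.58 in GATA1 4-14. The clones therefore held 82.7% and 70.6% of the control signal for GATA1, lower on 4 of 4 arrays. Its mean over clones was -0.39 ± 0.16 (SD, n = 2 clones), with an adjusted p of 0.603 by limma over all probes. The paper also reports reduced GATA1 transcripts in both clones by real-time RT-PCR. Its Western blots gave GATA1 protein reduced further than these array ratios, and more in GATA1 4-14 than in GATA1 5-13. Protein and array signal are unlike measures, so the array ratio is not the full account of the knockdown. On each array between 61.6% and 66.4% of non-control spots stood well above background in each channel, and no spot was saturated. Of the megakaryocyte and platelet markers, 6 of 9 genes were above background in GATA1 Neg, among them ITGA2B and GP9, while PF4, PPBP and VWF were not. Counting genes above background on all 4 arrays, B cell markers gave 2 of 8 (CD79A and PAX5), T cell markers 1 of 7 (CD3E) and monocyte and neutrophil markers 2 of 8 (ITGAM and LYZ). In GATA1 Neg, erythroid markers gave 7 of 8, all but HBZ, and mast cell and basophil markers 5 of 6.

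No member passed the test. With the 2 clones as replicates, 0 of the 12 member probes and 0% of all probes reached an adjusted p of 0.05 in limma. At the study's unadjusted threshold of 0.005 the members also gave 0 in each direction in limma, where 0.574% of all probes were called lower and 0.327% higher. The paper, with its own error model at that threshold, lists BTK as lower, among genes with a GATA1-bound region. At an unadjusted threshold of 0.05, 1 of the 12 member probes, BTK, was called lower and 0 higher. Of all 40974 probes, 3046 were called in either direction, which is a similar share. Adjusted p values of the members ran from 0.649 to 0.977. The median of the members' mean log2 ratios was 0.00, as was that of all probes. By size, BTK was lower in both clones, and SYK and LCP2 were higher in GATA1 5-13 and not in GATA1 4-14. In bulk RNA, fewer cells that express a gene and less of its RNA per cell cannot be told apart.

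**Figure D1:**
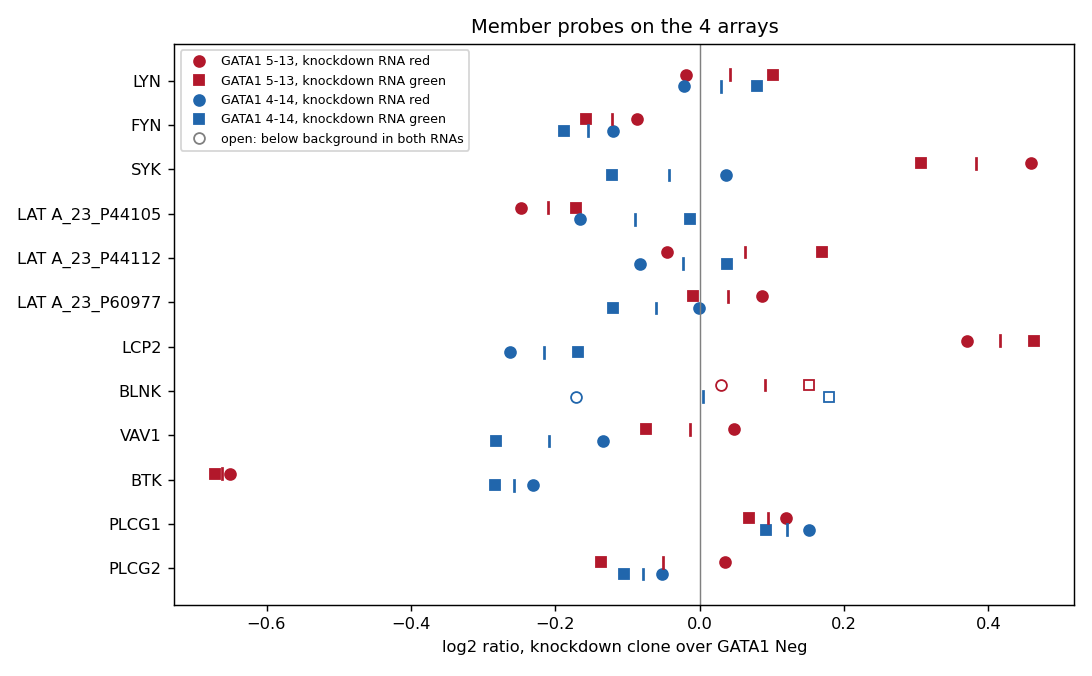
Log2 ratio of each member probe (rows) on the 4 arrays, knockdown clone over GATA1 Neg. Circles and squares are arrays with the knockdown RNA in red and in green, red and blue mark GATA1 5-13 and GATA1 4-14, vertical ticks are the means of a clone's 2 arrays, and open symbols (BLNK) were below background in both RNAs. BTK lies left of 0 on all 4 arrays, and LCP2 lies right of 0 in GATA1 5-13 and left of 0 in GATA1 4-14.

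The SRC-family kinases at the head of the chain differed between the clones by less than the gap between a clone's arrays. LYN, the SRC-family kinase that both starts and restrains signalling in myeloid cells and platelets, was at -0.02 and 0.10 in GATA1 5-13 and at -0.02 and 0.08 in GATA1 4-14. Both clones thus read just below 0 with the knockdown RNA in red and above 0 with it in green. The mean was 0.04 ± 0.01 (SD, n = 2 clones), with a 95% interval of -0.13 to 0.20 and an adjusted p of 0.900 in limma. Its level in GATA1 Neg, in normalized intensity units, ran from 22961 to 24307 over the 4 arrays, and the level in the clones from 23435 to 25033, so the groups overlapped.

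FYN, a kinase that works alongside LYN at the collagen receptor, was lower on all 4 arrays, at -0.09 and -0.16 in GATA1 5-13 and at -0.12 and -0.19 in GATA1 4-14. The clones held 91.9% and 89.9% of the control signal. Its probe lies at chr6:112089404-112089463 on hg18 and was printed 10 times on each array. On each array all 10 spots were below 0, with an SD among spots between 0.025 and 0.031. Levels in GATA1 Neg ran from 6424 to 6592 and those in the clones from 5765 to 6052, with no overlap. How common such a separation was over all probes is not given here. The mean was -0.14 ± 0.02 (SD, n = 2 clones), with a 95% interval of -0.31 to 0.03 and an adjusted p of 0.687 in limma. With median centring in place of loess, FYN was at 0.29 and 0.15 on the arrays with red knockdown RNA and at -0.42 and -0.45 on the others, and the clone means remained negative at -0.06 and -0.15.

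SYK, the tyrosine kinase that reads phosphorylated receptor motifs, differed between the clones. In GATA1 5-13 it was at 0.46 and 0.31, and in GATA1 4-14 at 0.04 and -0.12. GATA1 5-13 therefore held 130% of the control signal and GATA1 4-14 held 97.1%. The probe, at chr9:92697963-92698022 on hg18, was also printed 10 times, and the spots of 1 array varied with an SD of 0.028 to 0.045. No spot of GATA1 5-13 overlapped a spot of GATA1 4-14. Levels in GATA1 Neg were 1378, 1419, 1343 and 1400 on the 4 arrays, against 1894 and 1755 in GATA1 5-13 and 1378 and 1287 in GATA1 4-14. The difference between the clones, 0.42, was larger than the gap of 0.15 or 0.16 between the 2 arrays of either clone. Each clone is 1 sample, so this difference has no test. Over both clones the mean was 0.17 ± 0.30 (SD, n = 2 clones), with a 95% interval of -0.25 to 0.59 and an adjusted p of 0.786 in limma.

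**Figure D2:**
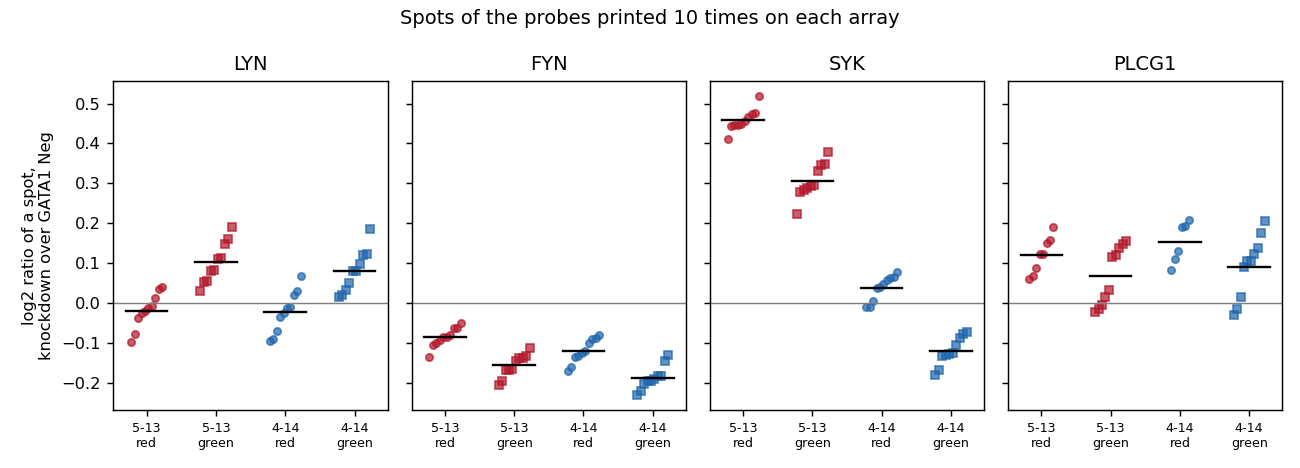
Log2 ratios of single spots (points) for the 4 member probes printed 10 times per array, by clone and by the dye of the knockdown RNA, with the array mean as a black line. SYK spots of GATA1 5-13 sit above all SYK spots of GATA1 4-14, and FYN spots sit below 0 on all 4 arrays. Spots of 1 array share the RNA and are not replicates of a clone.

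Among the adaptors LAT, LCP2 and BLNK, LCP2 had the largest difference between the clones. LCP2, the scaffold that joins VAV1 and phospholipase C-gamma downstream of SYK, was at 0.37 and 0.46 in GATA1 5-13 and at -0.26 and -0.17 in GATA1 4-14. The clones held 133% and 86.1% of the control signal, on opposite sides of 0, as did 1 of the 12 member probes and 15.9% of all probes. Levels in GATA1 Neg were 20047, 20198, 20475 and 19922, a 1.03-fold range, against 25911 and 27833 in GATA1 5-13 and 17069 and 17727 in GATA1 4-14. All 3 sets of values were apart, and the share of all probes for which this holds is not given here. The difference of 0.63 between the clones exceeded the gaps of 0.09 between the arrays of each clone, and its size ranked above that of 96.3% of all probes. It too has no test. The mean over clones was 0.10 ± 0.45 (SD, n = 2 clones), with a 95% interval of -0.49 to 0.69 and an adjusted p of 0.919 in limma. The probe lies at chr5:169608183-169608242 on hg18, minus strand.

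LAT, the membrane scaffold of T cells, mast cells and platelets, was read by 3 probes that did not move together. Probe A_23_P44105 (chr16:28909489-28909548 on hg18) was lower on all 4 arrays, at -0.25 and -0.17 in GATA1 5-13 and at -0.17 and -0.01 in GATA1 4-14, with a mean of -0.15 ± 0.09 (SD, n = 2 clones) and an adjusted p of 0.698 in limma. Probe A_23_P44112 (chr16:28909233-28909292) was at -0.05 and 0.17 in GATA1 5-13 and at -0.08 and 0.04 in GATA1 4-14. Its mean was 0.02, with the arrays on either side of 0 by dye in both clones. Probe A_23_P60977 (chr16:28905470-28905529) had a mean of -0.01 and ranged from -0.12 to 0.09. The gene as a whole therefore has no single direction here. The interval of the first probe, -0.35 to 0.05, and that of the second, -0.16 to 0.20, overlapped.

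BLNK, the scaffold that takes the place of LCP2 in B cells, was not well above background in either RNA on any of the 4 arrays. It has no fold and no direction in these data. The other 11 probes were above background in both RNAs on all 4 arrays.

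Next in the chain, VAV1 (chr19:6804995-6805054 on hg18), the exchange factor for RAC proteins, was at 0.05 and -0.07 in GATA1 5-13 and at -0.13 and -0.28 in GATA1 4-14. It was close to the control in the first clone (99.1%) and lower in the second (86.6%). The clone difference of 0.19 exceeded the gaps of 0.12 and 0.15 between arrays. The mean was -0.11 ± 0.14 (SD, n = 2 clones), with an adjusted p of 0.767 in limma.

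BTK, the TEC-family kinase that phosphorylates phospholipase C-gamma, had the lowest ratio of the members. It was at -0.65 and -0.67 in GATA1 5-13 and at -0.23 and -0.28 in GATA1 4-14, which is 63.2% and 83.7% of the control signal. Levels in GATA1 Neg were 13388, 12996, 12443 and 13220, against 8524 and 8163 in GATA1 5-13 and 10601 and 10862 in GATA1 4-14. All control values lay above all values of GATA1 4-14, and those above all values of GATA1 5-13. The share of all probes with levels set apart like this is not given here. The mean was -0.46 ± 0.29 (SD, n = 2 clones), a 1.37-fold lower level, with a 95% interval of -0.86 to -0.06, which is not adjusted for the number of probes, and an adjusted p of 0.649 in limma. Among all probes this mean was in the lowest 1.66%. BTK was read by 1 spot, whose sequence aligned within chrX:100494990-100495567 on hg18, minus strand.

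The 2 clones did not rank the same way for BTK and GATA1. By its array probe, GATA1 was lower in GATA1 4-14 (-0.50) than in GATA1 5-13 (-0.27). BTK was lower in GATA1 5-13 (-0.66) than in GATA1 4-14 (-0.26). The BTK difference of -0.40 between clones exceeded the gaps of 0.02 and 0.05 between arrays. With median centring, BTK read -0.21 and 0.12 on the arrays with red knockdown RNA and -0.99 and -0.61 on the others, and the clone means stayed at -0.60 and -0.25. When the 4 ratios were weighted by the errors of the scanner software, BTK alone of the members passed, with an adjusted p of 0.000441 from a normal distribution. That calculation takes array error for the whole error and leaves out the spread between clones.

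Summed levels of 3 marker lists were ordered like BTK, lowest in GATA1 5-13 and highest in GATA1 Neg. Over 10 probes for monocyte and neutrophil markers the sum ran from 2460 to 2479 in GATA1 5-13, from 2930 to 2986 in GATA1 4-14 and from 5791 to 6305 in GATA1 Neg. Over 16 probes for megakaryocyte and platelet markers it ran from 13593 to 13980, from 15987 to 16305 and from 17592 to 18512 in the same order, and the mast cell and basophil sum is given with the IgE receptor. B cell sums overlapped between the groups, at 2161 to 2249 in the clones and 2157 to 2262 in GATA1 Neg. T cell sums overlapped too, at 732 to 783 in the clones and 740 to 760 in GATA1 Neg. The erythroid sum went the other way and was highest in GATA1 5-13, at 481212 to 486768. It ran from 253303 to 386961 in GATA1 4-14 and from 214447 to 433822 in GATA1 Neg. Of the 8 monocyte and neutrophil genes, 1 was above background in GATA1 5-13, and 2 in GATA1 4-14 and in GATA1 Neg. That sum therefore rests on few genes, and in every sum the brightest probes weigh most. The part of these markers in the BTK values was not tested.

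**Figure D3:**
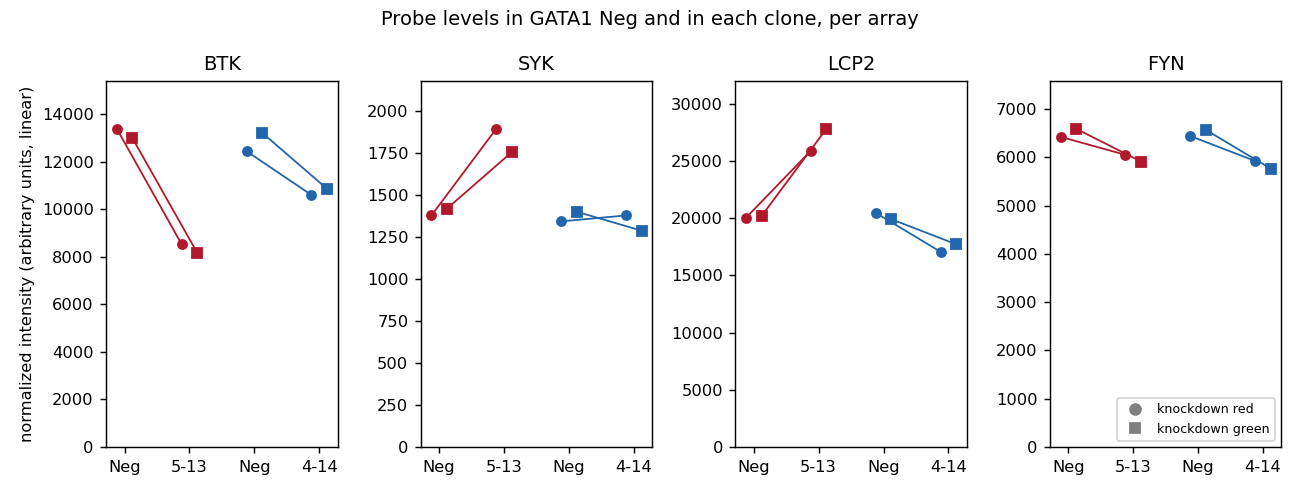
Normalized intensity (linear scale from 0) of the BTK, SYK, LCP2 and FYN probes in GATA1 Neg and in each clone, with a line joining the 2 RNAs of each array. Circles and squares are arrays with the knockdown RNA in red and in green. BTK lies below its control on all 4 lines, SYK and LCP2 lie above it on both lines of GATA1 5-13, and FYN lies below it on all 4 lines.

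The phospholipases at the end of the chain were close to the control. PLCG1 (chr20:39236963-39237023 on hg18), the broadly expressed gamma isoform, was higher on all 4 arrays, at 0.12 and 0.07 in GATA1 5-13 and at 0.15 and 0.09 in GATA1 4-14. Levels were low, from 137 to 150 in GATA1 Neg and from 149 to 159 in the clones, and between 6 and 10 of its 10 spots were used on an array. The mean was 0.11 ± 0.02 (SD, n = 2 clones), with a 95% interval of -0.06 to 0.28 and an adjusted p of 0.718 in limma. It was 0.04 with no background correction and 0.23 with the ratios of the scanner software. PLCG2 (chr16:80549076-80549135 on hg18), the isoform of hematopoietic cells, was at 0.04 and -0.14 in GATA1 5-13 and at -0.05 and -0.10 in GATA1 4-14, and its levels overlapped with those of GATA1 Neg. Its mean was -0.06 ± 0.02 (SD, n = 2 clones), with a 95% interval of -0.23 to 0.11 and an adjusted p of 0.800 in limma.

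Across the members, 3 probes were lower on all 4 arrays (BTK, FYN and LAT A_23_P44105), 1 was higher on all 4 (PLCG1), and the other 8 had both signs, BLNK included. Of all probes, 13.4% were lower and 12.8% higher on all 4 arrays. The clone difference exceeded the gap between the arrays of either clone for 4 of the 12 member probes (BTK, SYK, LCP2 and VAV1), against 41.3% of all probes. The ratio with red knockdown RNA minus that with green had 1 sign in both clones for all 12 member probes and for 74.6% of all probes. Both comparisons include probes below background, such as BLNK. Dye orientation and replicate number cannot be told apart here. The averages over both arrays of a clone, on which the test rests, balance the dyes.

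Genes around the members were read from 9 lists with 117 genes and 191 probes. None of these probes reached an adjusted p of 0.05 in limma, 4 were lower and 0 higher at the unadjusted threshold of 0.005, and the median ratio was -0.01. The shares over all probes at that threshold were the 0.574% lower and 0.327% higher given above. In both RNAs 137 of the 191 probes were above background on all 4 arrays, and of these 37 were lower and 26 higher on all 4, against 16.8% lower and 15.9% higher among all 23804 probes above background. The 4 were MS4A2, SLA2 and both probes of PTPN22. MS4A2, the beta chain of the IgE receptor on which LYN and SYK act in mast cells, was at -1.15 in GATA1 5-13 and -1.12 in GATA1 4-14, with an adjusted p of 0.327 in limma. It was the 1 probe of 12 called among the receptors and chains. Of the 7 above background in both RNAs, 3 were lower and 2 higher on all 4 arrays. FCER1A, the alpha chain of the same receptor, chosen here after its values were seen, was at -1.84 and -1.08. FCER1G, its gamma chain, was at -0.40 in GATA1 5-13 and 0.02 in GATA1 4-14, so the chains did not all move together. MS4A2 and FCER1A are also markers of mast cells and basophils. The summed level of the 6 probes for those markers ran from 51415 to 52953 in GATA1 5-13, from 72966 to 76225 in GATA1 4-14 and from 87718 to 101283 in GATA1 Neg, and 5 of 6 genes were above background in GATA1 Neg, with TPSD1 not. Their part in the receptor values was not tested.

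Negative regulators held the other called probes, 3 lower and 0 higher of 43. Of the 31 above background in both RNAs, 13 were lower and 1 higher on all 4 arrays. SLA2, an adaptor that restrains antigen receptor signalling, was at -1.37 in both clones, with an adjusted p of 0.297 in limma. PTPN22, a phosphatase of SRC-family and SYK-family kinases, was at -0.61 and -0.46 by probe A_23_P149345 and at -0.62 and -0.46 by probe A_23_P201181, each with an adjusted p of 0.542 in limma. The remaining lists had no called probe, and the probe with the largest ratio is given for each. PAG1, a membrane adaptor that brings CSK to the SRC-family kinases, was at -1.17 and -0.56, and its second probe read -1.09 and -0.52. Of the 16 probes in its list of SRC-family kinases and their control, 8 were above background in both RNAs, and 6 of these were lower and 1 higher on all 4 arrays. TXK, a relative of BTK, was at 0.36 and 0.12, and its second probe read 0.31 and -0.08. Of the 10 probes for SYK and TEC family relatives, 4 were above background in both RNAs, with 3 of these higher and 0 lower on all 4 arrays.

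FYB, an adaptor that binds LCP2, was at 0.31 and 0.60 by 1 probe and at -0.02 and 0.09 by another, so the probes disagreed. In its list of 31 adaptor probes, 25 were above background in both RNAs, and 6 of these were higher and 2 lower on all 4 arrays. CDC42, a small GTPase, was at -0.69 in GATA1 5-13 and 0.07 in GATA1 4-14. Its other 3 probes also read below 0 in the first clone and above 0 in the second. In its list of 15 probes, 14 were above background in both RNAs, and 3 of these were higher and 0 lower on all 4 arrays. PIK3R3, a regulatory subunit of phosphoinositide 3-kinase, was at 0.71 and 0.10, with the arrays of GATA1 4-14 at -0.03 and 0.23. Of the 13 probes for these subunits, 8 were above background in both RNAs, with 2 of these higher and 1 lower on all 4 arrays. Of the 41 probes for effectors after phospholipase C, 33 were above background in both RNAs, and 9 of these were lower and 7 higher on all 4 arrays. NFATC1, a transcription factor activated by calcium, had the highest ratio of the lists, at 1.63 and 0.73, and 0.46 and 0.17 by its second probe, with adjusted p of 0.605 in limma for the first. PLCB4, a phospholipase of another class, was at 0.65 and 0.24. Of the 10 probes for other phospholipases C, 7 were above background in both RNAs, and 3 of these were lower and 1 higher on all 4 arrays.

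**Figure D4:**
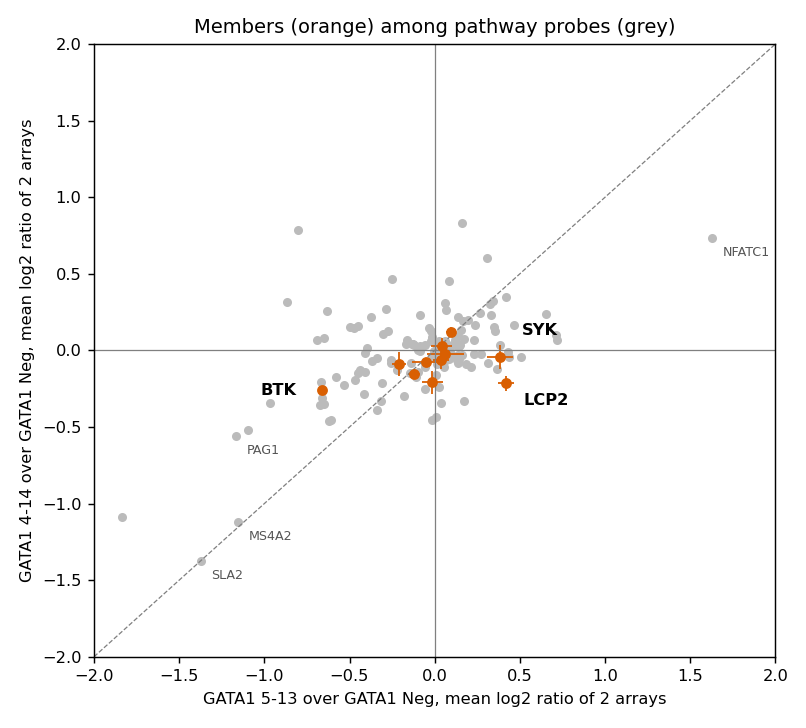
Mean log2 ratio over 2 arrays in GATA1 5-13 (horizontal) and GATA1 4-14 (vertical) for the 11 member probes above background (orange) and for the probes of the 9 pathway lists that were above background in both RNAs on all 4 arrays (grey). Bars on members span the 2 arrays, and the dashed line marks equal values. BTK lies below 0 in both clones, SYK and LCP2 lie right of 0 and below it, and MS4A2 and SLA2 lie on the line of equal values. The clones share the GATA1 Neg RNA.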

How the data were processed

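The authors deposited 4 Agilent two-color scans (whole human genome 4 x 44K design, 1 slide) with mean spot and background intensity per channel and Feature Extraction 9.5.3.1 log10 ratios. Per the labels, Alexa555 and Alexa647 were exchanged between a clone's arrays. The deposited value table equals those log10 ratios turned to knockdown over control and was not used further. The extraction text of the labels names CMK clones, whereas all other labels and the methods name Meg-01.

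Intensities were corrected with normexp (offset 50) and loess-normalized within arrays in limma 3.58.1 (R 4.3.3), with weight 0 for control and outlier spots (135 to 152 outlier spots of 43376 per array). Spots of a probe were averaged, then the 2 arrays of a clone. The mean of 2 clones was tested against 0 (moderated test, two-sided, Benjamini-Hochberg over 40974 probes). A check of this test on simulated data drew the clones independently. It therefore does not cover the GATA1 Neg RNA that the clones share. Levels are per-channel values after Aquantile. Replicate numbers mark the dye orientation, and deviations of same-numbered arrays correlated at 0.773 over probes. Probe positions are those of the files (hg18), and promoter windows are on GRCh38.p14. No p can carry the spread of GATA1 Neg, hybridized as 1 control RNA.

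Members and lists were chosen with earlier results of these data known. Named genes were all member probes, GATA1, and of each list the probes at an unadjusted p of at most 0.005 with 1 sign on all 4 arrays and the brighter RNA above background, otherwise its largest ratio above background in both RNAs. The study's Resolver error model was approximated by an error-weighted mean. Alternatives, 15 in all, are given in the closing section.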

Additional observations from a re-analysis of the deposited data

Results flagged for a closer look

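LCP2 (probe A_23_P30547) was higher than GATA1 Neg on both arrays of GATA1 5-13 and lower on both arrays of GATA1 4-14, a difference of 0.63 between the clones on the log2 scale. CDC42 (probe A_23_P200560) lay the other way, lower on both arrays of GATA1 5-13 and higher on both arrays of GATA1 4-14, a difference of -0.76. Both were flagged among the named genes only. LAT2, an adaptor from the lists that the naming rule left out, was added after its values were seen. It differed more, by -1.18 at probe A_23_P259621 and -0.89 at probe A_24_P351852, lower in GATA1 5-13 and higher in GATA1 4-14. Its probe A_24_P940327 was below background. None of these differences was tested, since each clone is 1 sample, and arrays of the clones lay on opposite sides of 0 for 15.9% of all probes.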

How the results depend on the processing

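Of 165 values of the 11 measured member probes under 15 alternatives, 9 turned sign and 1 passed the adjusted threshold. BTK kept its sign throughout (-0.66 to -0.26), as did FYN (-0.16 to -0.10). The turned values were LAT A_23_P60977 at 0.0018 with median centring, 0.013 and 0.019 without the second array of GATA1 5-13 and of GATA1 4-14 (leave-one-out range -0.040 to 0.019) and 0.039 without GATA1 4-14, LAT A_23_P44112 at -0.034 and -0.010 without those same arrays (range -0.034 to 0.073) and -0.023 without GATA1 5-13, and SYK at -0.042 and LCP2 at -0.22 without GATA1 5-13. The count of all probes called at the adjusted threshold, 0 with 2 clones in limma, was 1 with dim probes left out, 1 with an intensity trend, 0 to 1 with an array left out, 1240 with the 4 arrays as 4 values, 269 with the replicate block for dye orientation added, and 3415 with the error-weighted mean. These larger counts treat arrays of 1 clone as independent. Member probes at the unadjusted 0.005 numbered 1 (BTK) with 4 arrays as values and 1 with the error-weighted mean, 0 with the replicate block and 0 in each setting that left out an array. Member probes of 1 sign on all arrays, 4 here, numbered 1 (PLCG1) with median centring. They numbered 5 (LYN added) with the ratios of the scanner software and with the error-weighted mean. The count was 4 to 7 with an array left out, 8 without GATA1 5-13 and 7 without GATA1 4-14. BLNK, which was below background, was counted in the last of these and in the 5 without the first array of GATA1 4-14. The cause was not tested. Probes of members under another gene name were searched by accession and none was found. The 2 clones, the single control RNA and, for 8 probes, 1 spot per array limit the precision.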
